A study of Mus musculus with 15 samples.

Results

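Iron handling was followed through 10 genes in 15 tumors grown from Renca cells, a murine renal carcinoma line of BALB/c origin. The genes were taken by symbol from a table of 18279 genes, and all 10 were in it. They are *Hephl1*, *Heph*, *Fth1*, *Ftl1*, *Tfrc*, *Slc40a1*, *Slc11a2*, *Aco1*, *Ireb2* and *Gpx4*. *Hephl1* was chosen by its counts in these same tumors, which were known to be far lower in the *Pbrm1* knockout groups than in control, so its values against control are given as a description without a test. The other 9 members were taken for their known roles in iron handling, with earlier results of these data known, and were tested.

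The control group held 5 tumors (tumors 1 to 5). The sample labels call their source parental Renca cells, whereas the study's methods describe a control knockout plasmid. A further 5 tumors (tumors 6 to 10) came from *Pbrm1* KO #4 cells and 5 (tumors 11 to 15) from *Pbrm1* KO #18 cells, called clone 4 and clone 18 here. *Pbrm1* encodes a subunit of the PBAF chromatin remodeling complex, and both lines were made with CRISPR/Cas9 and repair plasmids, puromycin selection and single-cell sorting. Cells were injected under the skin of the back, in Matrigel, of female BALB/c mice purchased at 4 to 6 weeks of age. Tumors were harvested at a volume of 1000 mm3, or earlier from mice with ulcerated tumors or in distress. The sources used here do not say whether any of these 15 mice received the PD-1 antibody that was used elsewhere in the study. Each knockout arm is 1 sorted clone, so loss of *Pbrm1* and other properties of a clone cannot be told apart within an arm. Whether control cells went through the same selection and sorting is not clear. Such handling and loss of *Pbrm1* therefore cannot be told apart over both arms either. The study reports that untreated *Pbrm1* knockout tumors grew more slowly, so time in the host may differ between groups too. P-values measure the spread between tumors grown from the same cells.

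Between 32924414 and 49099168 reads fell on genes in each tumor, with a median of 40860659. Values are normalized counts, that is, reads divided by a size factor for each tumor. *Pbrm1* itself averaged 9012 ± 956.3 (SD, n = 5) in control, 2751 ± 212.7 in clone 4 and 2838 ± 210.3 in clone 18 (log2 difference -1.69, SE 0.07, limma adjusted p = 2.94e-11 for the 10 knockout against the 5 control tumors). All 8 markers of renal epithelium were detected, and their summed count ran from 98512 to 138488 over the 15 tumors. Tumors also hold host cells, and in bulk RNA fewer cells of a type and less RNA per cell cannot be told apart.

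Cells take up ferric iron bound to transferrin through the transferrin receptor (*Tfrc*), move ferrous iron into the cytosol through DMT1 (*Slc11a2*), store it inside ferritin (*Fth1*, *Ftl1*) and release it through ferroportin (*Slc40a1*). The multicopper ferroxidases hephaestin (*Heph*), hephaestin-like 1 (*Hephl1*) and ceruloplasmin (*Cp*) oxidize ferrous iron as it leaves the cell. When iron is scarce, the iron regulatory proteins IRP1 (*Aco1*) and IRP2 (*Ireb2*) bind stem-loops called iron responsive elements, which blocks translation of ferritin and ferroportin messages and protects the *Tfrc* message from decay. Ferrous iron also drives peroxidation of membrane lipids, and glutathione peroxidase 4 (*Gpx4*) reduces those peroxides and so guards cells from ferroptosis.

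Of the members, 4 carry in their untranslated regions a sequence with the letters of an iron responsive element. The sequences are shown because such elements are the known link from the regulators to the storage, export and uptake genes described below. GENCODE M21 transcripts (GRCm38) were searched on the transcribed strand for C, then NNNNN, then CAGTGN, then NNNNN, with all 5 bases before the loop pairing with the 5 after it, a G-T pair allowed. This pattern was found in the 5′ untranslated region of 0.204% of 14223 genes and in the 3′ untranslated region of 0.764% of 14269 genes. Capitals mark the bulged C and the loop.
*Fth1*, 5′ untranslated region, chr19:9982732-9982760, plus strand: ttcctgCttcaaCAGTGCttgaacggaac
*Ftl1*, 5′ untranslated region, chr7:45459779-45459807, minus strand: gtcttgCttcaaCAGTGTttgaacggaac
*Slc40a1*, 5′ untranslated region, chr1:45925465-45925493, minus strand: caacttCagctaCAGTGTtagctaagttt
*Tfrc*, 3′ untranslated region, site 1, chr16:32631219-32631247, plus strand: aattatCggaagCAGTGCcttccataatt
*Tfrc*, 3′ untranslated region, site 2, chr16:32631598-32631626, plus strand: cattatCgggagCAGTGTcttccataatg
*Tfrc*, 3′ untranslated region, site 3, chr16:32631663-32631691, plus strand: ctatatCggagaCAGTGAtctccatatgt
*Tfrc*, 3′ untranslated region, site 4, chr16:32631710-32631738, plus strand: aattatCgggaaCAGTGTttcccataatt

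The windows of both ferritin genes were identical at 26 of 29 positions, whereas that of *Slc40a1* shared 13 of 29 positions with each of them. The 4 windows of *Tfrc* shared between 18 and 25 of 29 positions with each other. No window with these letters was found in the transcripts of *Slc11a2*, although some of its transcripts are known to carry an element of looser form.

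In the 10 knockout tumors, 1 of the 9 tested members passed the threshold (*Heph*, lower), where 22.1% of all 18250 genes tested passed it, 9.23% higher and 12.9% lower. With tumor 13 or tumor 15 left out, *Gpx4* passed as well. Of the genes called, 41.7% were higher, and 53.5% with quantile normalization. The median log2 difference over the 9 was -0.02, and that over all genes tested was also -0.02. No member was higher by limma, edgeR or DESeq2, and at an unadjusted p under 0.05 the count was also 0 higher, with *Heph* and *Gpx4* lower. In the plot of each member by group, *Heph* lay apart from control in both clones, unlike the other tested members.

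**Figure D1:**
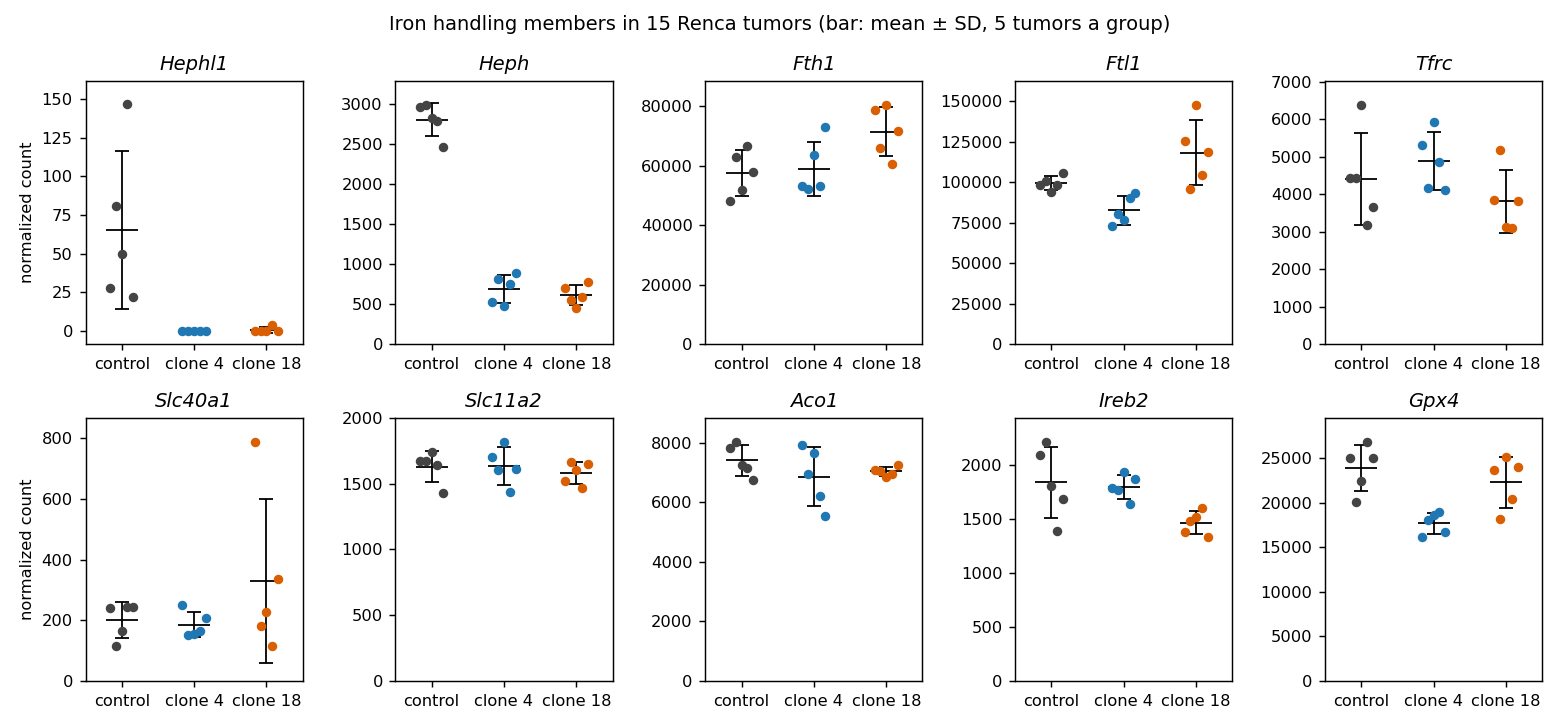
Normalized count of the 10 members in each tumor (points) of the control, clone 4 and clone 18 groups, each panel on its own linear axis, with the mean and SD of 5 tumors as bars. *Heph* lies at 2466 to 2990 in control and at 458.1 to 884.5 in both clones, while *Slc11a2* and *Aco1* overlap between all 3 groups.

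Among the ferroxidases, *Hephl1* was detected in every control tumor and nearly nowhere else. It lies on chromosome 9 (15051841 to 15112108, minus strand). Control tumors 1 to 5 had normalized counts of 27.9, 81.0, 50.1, 146.8 and 22.2, from 21 to 131 reads each and 322 reads in all. Every clone 4 tumor had 0 reads, and clone 18 had 0 in tumors 11, 12, 13 and 15 and 4 reads (4.0 normalized) in tumor 14. The control values themselves spread widely, with a mean of 65.6 ± 50.9 (SD, n = 5). Set against a floor of 3 reads in each tumor, *Hephl1* was at least 21.2-fold lower in clone 4. In clone 18 the 4 summed reads gave a ratio of 72.2-fold, with an exact Poisson 95% interval of 28.2 to 264.8 that covers counting error only.

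*Heph*, which encodes a membrane ferroxidase that works with ferroportin in the intestine, fell in both clones. Control tumors had 2964, 2990, 2831, 2787 and 2466 normalized counts. Clone 4 had 523.6, 810.3, 481.4, 757.8 and 884.5, and clone 18 had 701.1, 553.7, 458.1, 588.4 and 780.3. The highest knockout tumor (tumor 10) lay far below the lowest control tumor (tumor 5), and all 10 knockout tumors were below every control tumor, as was the case for 4.87% of genes in the pooled comparison and for 9.82% in clone 18 alone.

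Group means of *Heph* were 2808 ± 209.6 in control, 691.5 ± 178.9 in clone 4 and 616.3 ± 126.3 in clone 18 (SD, n = 5 each), so the knockout tumors kept 23.3% of the control level. The log2 difference was -2.13 (SE 0.14, limma adjusted p = 2.54e-08), a change of 4.38-fold, and 1.34% of genes (244) had a lower log2 difference. It was -2.06 in clone 4 and -2.21 in clone 18. Clone 18 differed from clone 4 by -0.15 (95% interval -0.49 to 0.19, limma adjusted p = 0.686). *Heph* on chromosome X (96455359 to 96574485, plus strand) overlaps *Hsf3* on the other strand and *Rpl17-ps8* on its own, both in the table, and the strand setting of the counting was not stated.

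*Cp*, the secreted ferroxidase of plasma that was examined beside the members, did not pass the threshold. Normalized counts were 54932, 57878, 48604, 57047 and 48005 in control. They were 62034, 68321, 70277, 60231 and 60761 in clone 4, and 60782, 52129, 45620, 60184 and 61361 in clone 18. Every clone 4 tumor was above every control tumor (5.80% of genes), although the log2 difference of 0.27 gave a limma adjusted p of 0.0629. Clone 18 overlapped control (0.07, limma adjusted p = 0.669).

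Summed over the 3 ferroxidases, *Heph* contributed 5.01% ± 0.32 of the normalized counts in control, 1.07% ± 0.308 in clone 4 and 1.08% ± 0.117 in clone 18 (SD, n = 5 each). The share of *Cp* was 94.9% ± 0.285, 98.9% ± 0.308 and 98.9% ± 0.116. The ratio of *Cp* to *Heph* was 17.2 to 20.5 over the control tumors and 68.7 to 146 over the knockout tumors, without overlap. These shares are of counts, not corrected for gene length, and describe the same fall of *Heph* in another form.

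**Figure D2:**
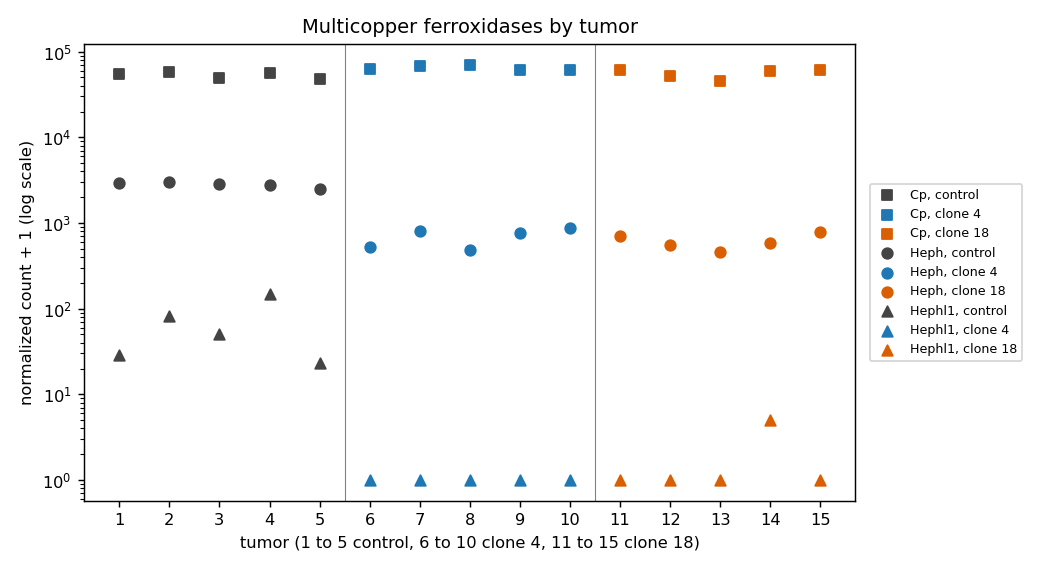
Normalized count plus 1 (log axis) of *Cp* (squares), *Heph* (circles) and *Hephl1* (triangles) in each of the 15 tumors, colored by group. *Cp* stays between 45620 and 70277, *Heph* drops from at least 2466 to at most 884.5, and *Hephl1* drops to 0 in 9 of 10 knockout tumors.

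Markers of host cells were read beside these genes. The summed count of 12 macrophage markers ran from 81114 to 106499 in control, from 63212 to 79448 in clone 4 and from 57719 to 77336 in clone 18. Of the 12, 5 passed the threshold and were lower in the knockout tumors, where 12.9% of all genes were lower and 9.23% higher. None of the 12 was at 0 in any group. The renal epithelial sum was 114798 to 138488, 98512 to 128543 and 104402 to 120502 in the same order, with 1 of 8 markers higher and 1 lower (2 lower by DESeq2). For keratinocytes, the cells of the skin over such tumors, 3 of 8 markers were in the table and their sum was 4.2 to 14 in control, 0 to 7.8 in clone 4 and 0 to 20 in clone 18. Of these, *Krt14* was at 0 throughout control and *Krt5* throughout clone 4, and the sum was highest in tumor 14 (20), which held 4 *Hephl1* reads, while tumor 4, with the highest *Hephl1* value (146.8), had a sum of 6.7. The part of these cells in the ferroxidase results was not tested.

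The receptor and transporter through which iron enters did not pass the threshold in any comparison. *Tfrc* had 4438, 4425, 6381, 3177 and 3649 normalized counts in control. It had 5312, 4154, 5931, 4848 and 4122 in clone 4 and 3855, 5168, 3136, 3095 and 3829 in clone 18. The groups overlapped broadly, and tumor 3 of the control group was the highest of all. The log2 difference between knockout and control was -0.01 (95% interval -0.35 to 0.33, limma adjusted p = 0.97), with 0.17 in clone 4 and -0.19 in clone 18.

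*Tfrc* lies on chromosome 16 (32608920 to 32632794, plus strand). The median log2 difference over the 495 genes of this chromosome with a mean of at least 10 was -0.20 in knockout against control, -0.14 in clone 4 and -0.27 in clone 18. It lay between -0.12 and 0.05 in each clone over the other chromosomes that hold members. Of the 6 nearest measured neighbors, *Pcyt1a* (-0.27, limma adjusted p = 0.00261), *Tnk2* (-0.36, limma adjusted p = 0.0109) and *Muc20* (-1.42, limma adjusted p = 0.0327) were lower. *Tctex1d2*, *Tm4sf19* and *Muc4* did not pass (-0.13, 0.14 and -0.22). *Muc20* averaged 3.1 in control and 0.42 in knockout tumors and so rests on few reads.

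*Slc11a2*, which encodes the proton-coupled ferrous iron transporter DMT1, varied little. Its normalized counts were 1670, 1674, 1737, 1639 and 1430 in control, 1703, 1604, 1819, 1436 and 1611 in clone 4, and 1523, 1661, 1604, 1467 and 1651 in clone 18. All groups covered nearly the same range. The log2 difference was -0.02 (95% interval -0.15 to 0.11, limma adjusted p = 0.866), so a change beyond these bounds was not found at this spread.

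Ferritin is built of a heavy chain with ferroxidase activity (*Fth1*) and a light chain that helps to form the mineral core (*Ftl1*), and both were among the most abundant members. *Fth1* had 48045, 62971, 51707, 66734 and 58039 normalized counts in control and 53366, 52221, 63511, 53208 and 73095 in clone 4. In clone 18 it had 78651, 66113, 80465, 60546 and 71846. The clone 18 values leaned above control, and tumors 11, 13 and 15 were above every control tumor. All 5 were above every control tumor for none of the members, as against 7.24% of genes. The log2 difference was 0.18 over both clones (limma adjusted p = 0.313), 0.04 in clone 4 (limma adjusted p = 0.884) and 0.32 in clone 18 (95% interval 0.07 to 0.57, limma adjusted p = 0.0617). In clone 18 it passed with upper quartile scaling (0.0352), quantile normalization (0.0362), edgeR (0.0404) and DESeq2 (0.0254), each an adjusted p. It also passed with limma when tumor 4 (0.0409), tumor 10 (0.0429) or tumor 14 (0.0373) was left out.

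*Ftl1* separated the clones from each other. Control tumors had 98162, 100861, 93973, 98384 and 105649 normalized counts. Clone 4 had 72746, 80183, 76962, 90442 and 93203, each below every control tumor (8.20% of genes). Clone 18 had 125224, 95674, 147747, 104422 and 118518, and tumors 11, 13 and 15 were above every control tumor. Against control the log2 difference was -0.27 in clone 4 (limma adjusted p = 0.12) and 0.24 in clone 18 (limma adjusted p = 0.146), so neither clone passed the threshold, although clone 18 passed by DESeq2 (adjusted p = 0.0466).

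Between the clones, *Ftl1* was the 1 member of 9 past the threshold, where 4.62% of genes passed it, 2.49% higher and 2.13% lower in clone 18. Mean normalized counts were 118317 ± 20122 in clone 18 and 82707 ± 8783 in clone 4 (SD, n = 5 each). The log2 difference was 0.51 (SE 0.11, limma adjusted p = 0.0152), and all 5 clone 18 tumors were above every clone 4 tumor, as for 2.64% of genes. The threshold was also passed with each tumor left out in turn, with an adjusted p of 0.00715 to 0.0461. A second member joined it without tumor 2 or 12 (*Gpx4*) or without tumor 4 (*Ireb2*). No member was lower in clone 18 by limma, edgeR or DESeq2, and *Tfrc* and *Ireb2* were lower at an unadjusted p under 0.05. A processed copy, *Ftl1-ps1*, is in the same table, so reads of this gene could be split between copies.

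The ratio of light to heavy chain counts was 1.47 to 2.04 in control, 1.21 to 1.70 in clone 4 and 1.45 to 1.84 in clone 18. The ratio of *Tfrc* to *Fth1*, genes that the iron regulatory proteins act on in opposite directions, was 0.0476 to 0.123, 0.0564 to 0.0995 and 0.039 to 0.0782 in the same order. Both ratios overlapped between groups, and neither was tested.

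*Slc40a1*, which encodes ferroportin, the cellular iron exporter, was low and variable. Control tumors had 239.1, 113.6, 166, 244.3 and 244.2 normalized counts. Clone 4 had 248.8, 151.9, 155.2, 163.8 and 208.3, and clone 18 had 788.8, 182.1, 226.5, 114.3 and 334.7. The value of tumor 11 stood far above all others. The sum of the 7 skeletal muscle markers was 53.9 to 153.3 in control, 38.3 to 1125 in clone 4 and 44.3 to 1779 in clone 18, with no marker at 0 in any group. It was highest in tumor 11 (1779), but nearly as high in tumor 15 (1715) and tumor 14 (1416), and tumor 14 had the lowest *Slc40a1* value of clone 18. The part of muscle in the *Slc40a1* values was not tested. The log2 difference was 0.18 (95% interval -0.53 to 0.89, limma adjusted p = 0.766), not past the threshold. Leaving out tumor 11 turned it to -0.03.

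The iron sensors were close to control, with *Ireb2* in clone 18 as the exception. *Aco1*, whose product is cytosolic aconitase when it holds an iron-sulfur cluster and IRP1 when it does not, had 7830, 8033, 7260, 7138 and 6750 normalized counts in control. It had 7909, 6957, 7663, 6203 and 5545 in clone 4 and 7092, 7049, 6845, 6945 and 7260 in clone 18. The clone 18 values lay inside the control range, and tumors 9 and 10 of clone 4 lay below it. The log2 difference was -0.10 (95% interval -0.25 to 0.06, limma adjusted p = 0.386).

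*Ireb2*, whose product IRP2 is degraded when iron is plentiful, had 2092, 2215, 1806, 1391 and 1682 normalized counts in control. Clone 4 had 1782, 1771, 1934, 1634 and 1867, all inside the control range. Clone 18 had 1378, 1483, 1517, 1600 and 1336, each below every clone 4 tumor (2.88% of genes) and 2 of them below every control tumor. In clone 18 against control the log2 difference was -0.31 (SE 0.10, limma adjusted p = 0.0336). This call was lost with upper quartile scaling (adjusted p = 0.0685), with quantile normalization (0.0626), and when tumor 1 (0.0912), 2 (0.0911), 3 (0.0576), 11 (0.0709), 12 (0.0518) or 15 (0.0763) was left out. The difference between the clones was -0.30 (limma adjusted p = 0.113), and of the alternatives run it passed when tumor 4 was left out (0.0463).

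*Gpx4*, a selenoenzyme, fell in clone 4. Control tumors had 24985, 20120, 22433, 26836 and 25050 normalized counts. Clone 4 had 16114, 18014, 18611, 18893 and 16675, each below every control tumor (8.20% of genes). Clone 18 had 23632, 18190, 25120, 20406 and 23996 and overlapped control, with tumor 12 below it. Means were 23885 ± 2625 in control, 17661 ± 1216 in clone 4 and 22269 ± 2876 in clone 18 (SD, n = 5 each).

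The log2 difference of *Gpx4* was -0.43 in clone 4 (SE 0.10, limma adjusted p = 0.00453) and -0.10 in clone 18 (95% interval -0.30 to 0.10, limma adjusted p = 0.472). Over both clones it was -0.27 (limma adjusted p = 0.0796), and it passed when tumor 13 (0.0337) or tumor 15 (0.0485) was left out. The difference between the clones, 0.33 (limma adjusted p = 0.0597), passed with upper quartile scaling (0.0388), quantile normalization (0.0431), edgeR (0.048) and DESeq2 (0.011). It also passed when tumor 2 (0.0452) or tumor 12 (0.0184) was left out.

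Taken by clone, 2 of the 9 tested members were lower in clone 4 (*Heph* and *Gpx4*), where 16.8% of all genes passed, 6.79% higher and 10.0% lower. In clone 18, 2 of the 9 were lower (*Heph* and *Ireb2*), where 24.7% passed, 10.4% higher and 14.2% lower. *Ireb2* left the clone 18 count without tumor 1, 2, 3, 11, 12 or 15, and *Fth1* entered it as higher without tumor 4, 10 or 14. No member was higher in clone 4 by limma, edgeR or DESeq2, nor at an unadjusted p under 0.05. None was higher in clone 18 by limma, with *Fth1* higher at an unadjusted p under 0.05, 1 member higher by edgeR and 2 by DESeq2. Both comparisons share the same 5 control tumors.

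**Figure D3:**
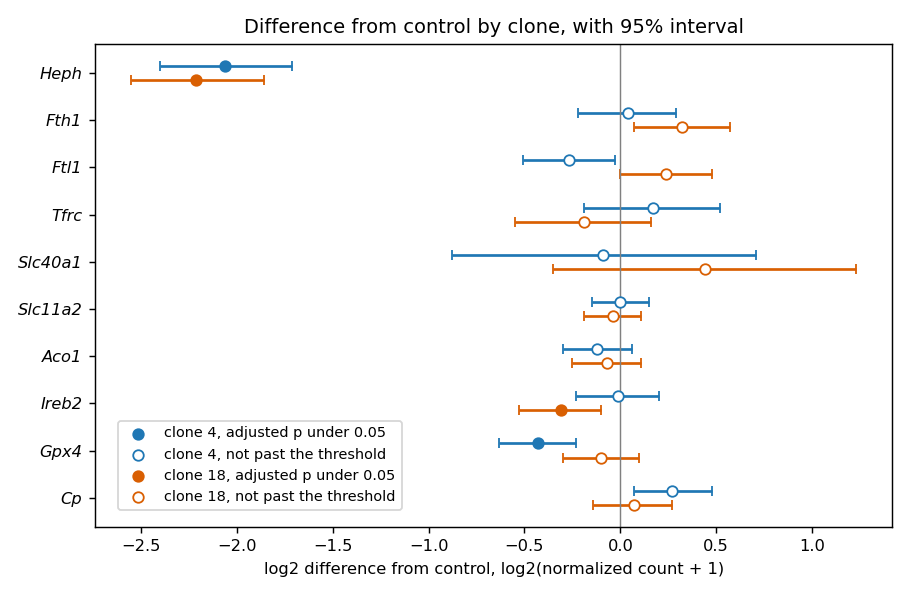
Log2 difference from control on the log2(normalized count + 1) scale for 9 members and *Cp* in clone 4 and clone 18, with 95% intervals as bars and filled points for adjusted p under 0.05. *Heph* lies near -2 in both clones, *Gpx4* passes in clone 4 (-0.43) and *Ireb2* in clone 18 (-0.31), and *Ftl1* lies on opposite sides of 0 in the 2 clones.

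Per kilobase of exon, the mean normalized counts of the control tumors fell in the order *Ftl1* (74183), *Fth1* (16575), *Gpx4* (13854), *Aco1* (1646), *Tfrc* (713.6), *Heph* (366.4), *Slc11a2* (256.5), *Ireb2* (193.8), *Slc40a1* (22.4) and *Hephl1* (12.5). *Cp*, at 5571, stood between *Gpx4* and *Aco1*. The ranges of neighboring genes overlapped for *Fth1* and *Gpx4*, for *Slc11a2* and *Ireb2*, and for *Slc40a1* and *Hephl1*, and were apart for the others. In both clones *Heph* moved below *Slc11a2* and *Ireb2*, to 90.3 per kilobase in clone 4 and 80.4 in clone 18, while the order of the other genes was kept. In clone 18 the range of *Heph* (59.8 to 101.8) overlapped that of *Slc40a1* (12.7 to 87.6), the next gene.

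The genes most like *Hephl1* across the 15 tumors, by Pearson's r of log2(normalized count + 1) over 16493 genes with a mean of at least 10, were *1500011B03Rik* (0.971), *Trim66* (0.962), *Arl11* (0.961), *Bdh1* (0.960) and *Rab17* (0.957). *Trim66*, for example, averaged 39.2 ± 18.8 in control and 1.03 ± 1.08 in the knockout tumors, and *Bdh1*, which encodes a ketone body dehydrogenase, averaged 571.5 ± 81.7 and 97.8 ± 19.7. *Heph* ranked 59th with an r of 0.921. These r values describe the step between control and knockout tumors that all these genes share, since 9 of the 15 *Hephl1* values were 0.

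Next to *Hephl1*, the nearest measured gene, *Panx1*, began 6.36 kb away and did not pass the threshold (146.3 ± 29 in control, 116.7 ± 26.3 in knockout tumors, log2 difference -0.34, limma adjusted p = 0.175). On the same side, *Izumo1r* was lower (-1.68, limma adjusted p = 0.0433) from a mean of 6.42, and *Gpr83* had a mean under 1 in both groups. On the other side, *Vstm5* was higher (38.3 ± 10.6 against 124.7 ± 50.2, log2 difference 1.61, limma adjusted p = 0.000733), as was *4931406C07Rik* (0.43, limma adjusted p = 0.00652), and *Med17* did not pass (0.06, limma adjusted p = 0.485). The genes of chromosome 9 had a median log2 difference of 0.00.

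For *Heph*, whose neighbors were looked up after its values were seen, 1 of the 4 genes described here passed the threshold. *Msn*, which encodes the cytoskeletal linker moesin, was lower by a small amount (17842 ± 1473 in control, 15316 ± 1526 in knockout tumors, log2 difference -0.22, limma adjusted p = 0.0376). *Vsig4*, a macrophage gene and the nearest, had -0.43 (limma adjusted p = 0.439), and *F630028O10Rik* and *Eda2r* had -0.10 and -0.59 and did not pass. The genes of chromosome X had a median of -0.06.

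Genes that work beside the members were read from lists that together held 123 tested genes besides *Hephl1*. Of these, 16 were higher and 20 lower in the knockout tumors, which is 29.3% against 22.1% of all genes tested. The lists were chosen with earlier results of these data known, so this share is a description. In the fit of genes with a mean of at least 10 alone, a level that nearly all list genes reach, 3919 of 16494 passed. The lists were not tested as sets, and genes of different lists partly coincide.

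Of 17 genes of iron uptake and transport, 3 were higher, 3 lower and 11 did not pass (all genes: 9.23% higher, 12.9% lower). *Lcn2*, which encodes the siderophore-binding protein lipocalin 2, fell most, from 954.2 to 2328 normalized counts in control to 353.9 to 1609 in clone 4 and 379.9 to 471.5 in clone 18 (log2 difference -1.60, SE 0.29, limma adjusted p = 0.0008). Tumor 10 of clone 4 was alone among knockout tumors in reaching the control range. *Trf*, which encodes transferrin, fell from 153.2 ± 14.7 to 105.7 ± 21.9 in clone 4 and 96.9 ± 16.5 in clone 18 (-0.61, limma adjusted p = 0.00766), with all 10 knockout tumors below control (4.87% of genes). *Mcoln1*, an endolysosomal channel through which iron can leave, rose from 1833 ± 166.8 to 2221 ± 109 and 2500 ± 263.9 (0.36, limma adjusted p = 0.0019), with all 10 above control (3.11% of genes).

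*Slc39a8*, a metal importer, fell by 0.48 on the log2 scale (limma adjusted p = 0.0442), a call that was lost with upper quartile scaling, quantile normalization and edgeR. It was also lost when any of tumors 1 to 5, 9, 11, 13, 14 or 15 was left out. By clone, *Slc39a8* did not pass in clone 4 (-0.26, limma adjusted p = 0.318) and passed in clone 18 (-0.71, limma adjusted p = 0.00381).

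In iron storage and ferritin release, 1 of 5 tested genes was higher, none was lower and 4 did not pass (all genes: 9.23% higher, 12.9% lower). *Pcbp1*, a chaperone that delivers iron to ferritin, rose from 3272 ± 289.3 to 4336 ± 603.8 in clone 4 and 4702 ± 617 in clone 18 (0.46, SE 0.09, limma adjusted p = 0.00168). In knockout against control, no gene of this list was lower by limma, edgeR or DESeq2, nor at an unadjusted p under 0.05.

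In iron export and the hepcidin axis, 3 of 7 tested genes were lower, none was higher and 4 did not pass (all genes: 9.23% higher, 12.9% lower). *Tmprss6*, a protease that restrains hepcidin induction in the liver, had 141.9 to 267.8 normalized counts in control, 24.9 to 54.5 in clone 4 and 94.2 to 163.4 in clone 18. Its pooled log2 difference of -1.41 (limma adjusted p = 0.0201) covered -2.28 in clone 4 (limma adjusted p = 4.23e-06) and -0.54 in clone 18 (limma adjusted p = 0.111). The difference between the clones, 1.75, was past the threshold (limma adjusted p = 0.000229). The pooled call was lost when tumor 1 or tumor 4 was left out.

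*Bmp6*, a ligand that induces hepcidin, fell from 64.8 ± 23 to 29.4 ± 11.9 in clone 4 and 19.2 ± 5.07 in clone 18 (-1.40, limma adjusted p = 0.00256). *Hfe*, which binds the transferrin receptor, fell by 0.21 on the log2 scale (limma adjusted p = 0.0437), lost with upper quartile scaling, quantile normalization and edgeR. It was also lost when tumor 1, 3, 4, 7, 8, 10, 12, 13, 14 or 15 was left out. By clone, *Hfe* did not pass in clone 4 (-0.18, limma adjusted p = 0.16) and passed in clone 18 (-0.24, limma adjusted p = 0.0404). In knockout against control, no gene of this list was higher by limma, edgeR or DESeq2, nor at an unadjusted p under 0.05. Hepcidin itself (*Hamp*) and *Hjv* were not in the table.

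The list for iron regulatory proteins held *Aco1* and *Ireb2*, which encode them, and *Fbxl5*, a ubiquitin ligase adapter that removes IRP2. Of these 3 genes, 0 passed in knockout against control by limma, edgeR or DESeq2, and also at an unadjusted p under 0.05. Of 10 transcripts listed for iron responsive elements, which include 5 members, 0 passed in knockout against control by limma, edgeR or DESeq2, and 1 (*Cdc42bpa*) was lower at an unadjusted p under 0.05. Their median log2 difference in that comparison was -0.01, and 22.1% of all genes tested passed by limma. In clone 18 against clone 4, 1 of the 10 (*Ftl1*) passed by limma, where 4.62% of all genes did. Counts of transcripts do not measure translation, where the 5′ elements printed above act.

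Of 19 genes tested for heme synthesis, transport and breakdown, 5 were higher, 0 lower and 14 did not pass, with a median log2 difference of 0.12. The shares over all genes tested were 9.23% higher and 12.9% lower. *Abcb10*, a mitochondrial transporter needed for heme synthesis, rose from 1586 ± 61.3 to 1945 ± 159.4 in clone 4 and 2105 ± 301 in clone 18 (0.34, limma adjusted p = 0.00382), with all 10 knockout tumors above control (3.11% of genes). Over both clones, the synthesis enzymes *Ppox* (0.23, limma adjusted p = 0.0321) and *Alad* (0.20, limma adjusted p = 0.0244) and the biliverdin reductase *Blvrb* (0.29, limma adjusted p = 0.047) rose less. In clone 4, *Ppox*, *Alad* and *Blvrb* did not pass (0.13, 0.15 and 0.14, limma adjusted p = 0.247, 0.13 and 0.366). In clone 18 they passed (0.33, 0.24 and 0.45, limma adjusted p = 0.00248, 0.0133 and 0.00192). The pooled call of *Alad* was lost without tumor 1 or 5, and that of *Ppox* without tumor 2, 3, 4, 11 or 14. That of *Blvrb* was lost without tumor 1, 2, 3, 5, 8, 9, 11, 13, 14 or 15.

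In knockout against control, no heme gene was lower by limma or edgeR, 1 was by DESeq2, and *Cpox* and *Lrp1* were at an unadjusted p under 0.05. With single tumors left out, 0 to 2 heme genes were lower by limma. By clone against control, limma gave 2 higher and 1 lower in clone 4, and 6 higher and 1 lower in clone 18. The shares over all genes were 6.79% higher and 10.0% lower in clone 4, and 10.4% and 14.2% in clone 18. Of 11 erythroid markers 9 were in the table, and 1 was higher in the knockout tumors (9.23% of genes). Their summed count was 1252 to 4275 in control, 3891 to 5696 in clone 4 and 1580 to 7690 in clone 18, with none at 0, and the part of red cells in the heme genes was not tested.

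Of 26 tested genes of iron-sulfur cluster assembly, 2 were higher, 5 lower and 19 did not pass (all genes: 9.23% higher, 12.9% lower). The lower ones included *Nubp1* and *Fam96a*, which serve the cytosolic pathway, and *Fdx1*, a mitochondrial ferredoxin. *Nubp1* fell from 4800 ± 539 to 3734 ± 206 in clone 4 and 3233 ± 287 in clone 18 (-0.46, limma adjusted p = 0.000572). *Fam96a* fell from 2762 ± 135.9 to 2092 ± 112.4 and 1977 ± 117.5 (-0.44, limma adjusted p = 1.82e-05), with all 10 knockout tumors below control (4.87% of genes), and *Fdx1* from 512.5 ± 93.5 to 393.4 ± 31.3 and 385.9 ± 23.9 (-0.38, limma adjusted p = 0.00958). *Iba57*, which acts late in the mitochondrial pathway, rose (0.35, limma adjusted p = 0.0195), a call lost when tumor 2 was left out.

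Of 22 genes that guard against ferroptosis, 4 were higher, 3 lower and 15 did not pass, *Gpx4* among the last (all genes: 9.23% higher, 12.9% lower). *Gch1*, the first enzyme of tetrahydrobiopterin synthesis, had 4147, 4761, 4843, 5275 and 5435 normalized counts in control. It had 2510, 2895, 2617, 3679 and 3397 in clone 4 and 2483, 2249, 2297, 2334 and 2741 in clone 18. All 10 knockout tumors were below every control tumor, as for 4.87% of genes, with a log2 difference of -0.86 (SE 0.11, limma adjusted p = 2.41e-05). *Nqo1*, a quinone reductase, also fell in all 10 (2389 ± 163 in control, 1502 ± 193.2 in clone 4, 1909 ± 247.3 in clone 18, log2 difference -0.50, limma adjusted p = 0.00287).

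In the other direction, *Gclm*, the modifier subunit of the enzyme that begins glutathione synthesis, rose from 3735 ± 377.7 to 4695 ± 458 in clone 4 and 6770 ± 1105 in clone 18 (0.59, limma adjusted p = 0.00535). *Mboat1*, a phospholipid acyltransferase, rose from 1110 ± 108.6 to 1629 ± 176.5 and 1527 ± 105 (0.51, limma adjusted p = 9.51e-05), with all 10 above control (3.11% of genes).

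Against clone 4, clone 18 was higher in 4 of the 22 guard genes and 18 did not pass, in a comparison where 2.49% of all genes were higher. The 4 were *Gclm* (0.52, limma adjusted p = 0.00687), *Aifm2*, which encodes the ubiquinone reductase FSP1 (0.46, limma adjusted p = 0.00194), *Scd1* (0.41, limma adjusted p = 0.0339) and *Nqo1* (0.34, limma adjusted p = 0.0491). *Aifm2* and *Scd1* fall outside the rule for named genes and were named after their values were seen. Against control, *Gclm* was higher and *Nqo1* lower in each clone, so a difference between clones does not give a direction from control. *Gpx4*, at 0.33, was not past the threshold in this comparison.

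Of 18 genes that drive ferroptosis, 1 was higher, 5 lower and 12 did not pass in knockout against control (all genes: 9.23% higher, 12.9% lower). In clone 4 alone, 3 were higher and 2 lower (all genes: 6.79% and 10.0%). In clone 18 alone, 1 was higher and 5 lower (all genes: 10.4% and 14.2%). *Alox15*, a lipoxygenase that oxidizes membrane lipids, was higher, with 47.6, 93.4, 64.0, 110.9 and 86.7 normalized counts in control. Clone 4 had 479.3, 204.5, 318.3, 93.3 and 142.6, and clone 18 had 145.9, 115.7, 299.8, 169.4 and 197.0. Tumor 9 lay inside the control range and the other 9 knockout tumors above it (log2 difference 1.31, SE 0.32, limma adjusted p = 0.00698).

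*Sat1*, which acetylates polyamines, fell from 21049 ± 1423 to 12613 ± 1780 in clone 4 and 12728 ± 1239 in clone 18 (-0.74, SE 0.08, limma adjusted p = 4.21e-06), with all 10 knockout tumors below control (4.87% of genes). *Fads1*, a fatty acid desaturase (-0.36, limma adjusted p = 0.000458), and *Cyb5r1*, an oxidoreductase (-0.35, limma adjusted p = 0.0145), fell less. By clone, *Cyb5r1* did not pass in clone 4 (-0.28, limma adjusted p = 0.0907) and passed in clone 18 (-0.43, limma adjusted p = 0.00797). *Acsl4*, which loads polyunsaturated fatty acids into phospholipids and was named after its values were seen, was the 1 driver lower in clone 18 than in clone 4 (10682 ± 627.2 in clone 4, 7515 ± 1050 in clone 18, log2 difference -0.52, limma adjusted p = 0.00165). In knockout against control, *Acsl4* did not pass and was higher at an unadjusted p under 0.05.

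**Figure D4:**
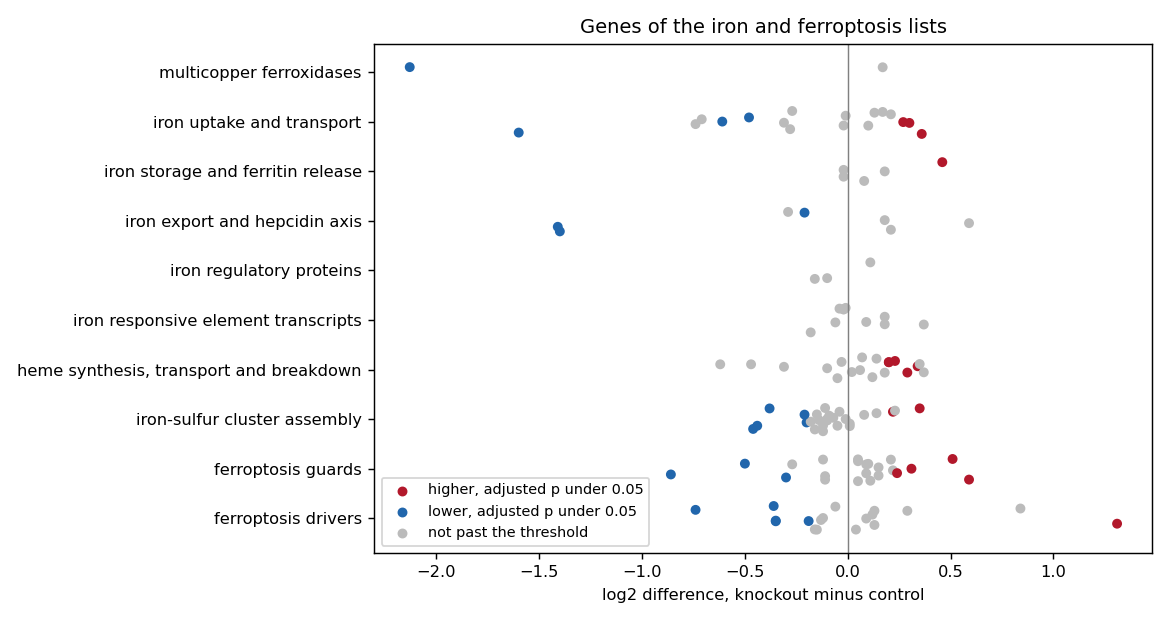
Log2 difference (knockout minus control) of each tested gene of 10 lists (1 row a list, points spread vertically for legibility), red where higher and blue where lower at an adjusted p under 0.05, gray otherwise; *Hephl1* is not drawn. *Heph* at -2.13 is the lowest point and *Alox15* at 1.31 the highest.

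Other host cell markers were also read, beside shares over all genes of 9.23% higher and 12.9% lower by limma. Of 7 neutrophil markers, 2 were lower in the knockout tumors by limma and edgeR and 1 by DESeq2. Of 8 T cell markers, 3 were lower by limma and 5 by both edgeR and DESeq2. None of 6 endothelial and 7 fibroblast markers passed by limma, edgeR or DESeq2, nor at an unadjusted p under 0.05. Of the 7 skeletal muscle markers, 0 passed by limma, 2 were higher at an unadjusted p under 0.05, and 4 were higher by both edgeR and DESeq2. In addition, 1 of 5 adipocyte markers was lower by all 3 tools, and 1 of 3 measured keratinocyte markers (*Trp63*, named after its values were seen) was lower by limma but 0 by edgeR and DESeq2. Neutrophil sums were 793.8 to 1832 in control, 531.2 to 2037 in clone 4 and 587.7 to 854.2 in clone 18, with *Ly6g* at 0 in clone 18. *Lcn2*, a gene that neutrophils also express, and this sum both had their highest knockout value in tumor 10, and the part of neutrophils in the *Lcn2* result was not tested.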

How the data were processed

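Bulk RNA-seq of 15 subcutaneous tumors was analyzed, 5 each of control, clone 4 and clone 18 as the labels give them. According to the methods and the submitters' processing notes, the authors aligned reads to mm10 with TopHat2, used HTSeq for gene-level counting and scaled the result with DESeq size factors. Versions, gene annotation and strand setting were not given. The deposited values are this normalized count signal, rounded to 0.1. Up to a value of 8000, 100.0% of values were whole reads within 0.06 normalized counts, so reads were recovered; 32924414 to 49099168 reads per tumor lay on genes. Tumors of a group differed beyond sampling noise in all 30 pairs (lowest chi-square per degree of freedom 17.69). Intervals on reads cover counting error only.

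Of 18279 genes, 29 were at 0 in every tumor. The other 18250 were fitted on log2(normalized count + 1) with limma 3.58.1 (trend, R 4.3.3), once with 2 groups (10 knockout against 5 control) and once with 3 groups, with Benjamini-Hochberg adjustment over all genes and a threshold of 0.05. The fits were tested on simulated data. Log2 differences on this scale understate changes of low genes. The settings varied were the pseudocount (0.1 or 5), a minimum mean of 10 per gene, upper quartile and quantile scaling, edgeR 4.0.16 and DESeq2 1.42.0 on recovered reads, and each tumor left out.

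The members, the 10 pathway lists and the 10 marker lists (erythroid, macrophage, neutrophil, T cell, endothelial, fibroblast, keratinocyte, skeletal muscle, adipocyte and renal epithelial) were chosen with earlier results of these data known. Named genes were all members, *Cp*, *Pbrm1*, in each list up to 4 other genes past the threshold in knockout against control with the largest log2 difference and a mean of at least 10, the 5 genes with the highest r with *Hephl1*, and the 3 nearest measured genes on each side of *Hephl1* and *Tfrc*. The neighbors of *Heph*, the ratios, shares and order of levels were added after values were seen. Positions (GENCODE M21, GRCm38) were found for 18007 genes (98.5%). Protein and promoter sequences were not used here. Some neighbors of *Heph* are not reported here.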

Additional observations from a re-analysis of the deposited data

Results flagged for a closer look

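In clone 18, *Hephl1* had 4 normalized counts in tumor 14 and 0 in the other 4 tumors. With 4 tumors at 0, any count at all would have stood apart, so this gives the counts and no more.

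*Ftl1* differed between the clones, with a log2 difference of 0.51 for clone 18 minus clone 4 (limma adjusted p = 0.0152). The 5 clone 18 tumors were all above the 5 clone 4 tumors.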

How the results depend on the processing

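*Heph* passed the threshold in knockout against control, clone 4 against control and clone 18 against control under every alternative run. The number of tested members past the threshold was 4 with DESeq2 in clone 18 against control (*Heph*, *Fth1*, *Ftl1* and *Ireb2*, against 2 with limma). In clone 18 against clone 4 it was 2 (*Ftl1* and *Gpx4*, against 1) with upper quartile scaling, quantile normalization, edgeR and DESeq2. With each tumor left out, it was 1 to 2 in knockout against control, 2 in clone 4, 1 to 3 in clone 18 and 1 to 2 between the clones, and 26 to 37 of 123 list genes passed. The cause of these shifts was not tested. Differences near 0 that were never past the threshold changed sign. With upper quartile scaling, knockout against control became 0.01 for *Ftl1*, 0.02 for *Tfrc* and 0.01 for *Slc11a2*, and clone 4 against control 0.00 for *Ireb2*. With quantile normalization, it became 0.02 for *Tfrc* and 0.02 for *Slc11a2*, with 0.00 for *Slc11a2* in clone 18 and -0.04 for *Fth1* and 0.00 for *Ireb2* in clone 4. For *Ftl1* in knockout against control it became 0.04 with edgeR and 0.02 with DESeq2. With each tumor left out, sign changes occurred within -0.08 to 0.03 for *Ftl1*, -0.12 to 0.13 for *Tfrc*, -0.03 to 0.28 for *Slc40a1* and -0.07 to 0.00 for *Slc11a2* in knockout against control. In clone 4 they occurred within -0.04 to 0.09 for *Fth1*, -0.04 to 0.05 for *Slc11a2* and -0.11 to 0.06 for *Ireb2*, and between the clones within -0.02 to 0.10 for *Aco1*. Members other than *Slc40a1* and *Hephl1* rested on at least 350 reads in every tumor, so depth limits mainly these 2 genes. No paired analysis was possible because the tumors of the 3 groups carry no shared replicate number in their labels.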
